A study of Mus musculus with 16 samples.

Results

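Whole-lung gene expression was compared between mice lacking Mmp28 and wild-type mice that had breathed only room air. The comparison rests on 6 arrays, 3 from Mmp28-/- mice (KO) and 3 from wild-type mice (WT), chosen by their labelled genotype and exposure out of 16 arrays in all. The other 10 arrays, 5 KO and 5 WT, came from mice given cigarette smoke in sessions of 3 hours, with 5 sessions each week for 3 months. All mice were C57BL/6 or carried the deletion on that background, and the labels call them matched for age and gender. The room-air mice were held in the same facility and placed in a chamber like that of the smoke mice, so they shared handling but not smoke. The labels put the start of the smoke exposures at an age of 7 to 9 weeks. No start age was recorded here for the room-air mice. The labels give the deletion as Mmp28-/- and name no tissue or promoter that limits it, and the sample is a homogenate of the whole lung, which mixes all its cell types. In such a sample, fewer cells of a type and less RNA per cell cannot be told apart. The labels call the samples replicates without saying whether each is a separate mouse. The p-values therefore rest only on how far these samples spread, which may be technical.

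Mmp28, also called epilysin, is a secreted member of the matrix metalloproteinases, zinc enzymes that cut proteins of the extracellular matrix and other secreted proteins. It is known in the lung from airway epithelium and from macrophages. The matrix of the alveolar wall is built mainly by fibroblasts. Fibrillar collagens give it tensile strength, elastin and its microfibrils give it recoil, and small leucine-rich proteoglycans govern how collagen fibrils assemble.

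The arrays were Illumina MouseRef-8 v2 BeadChips, which read each transcript with 1 colour and a probe carried on many beads. Levels below are log2 intensities after background correction and quantile normalization, and a log2 difference is always KO minus WT. A probe was tested if it was detected (detection p under 0.05) on at least 3 of the 6 air arrays, which left 14724 probes. A probe is called where the Benjamini-Hochberg adjusted p of limma's moderated test, over all those probes, was under 0.05. The SE of a difference is limma's, and rests on a spread estimated over all 16 arrays, smoke arrays included. It is not the spread of the air arrays alone, and the n beside it counts the air arrays of each genotype. The array of WT replicate 1 stood apart from every other array, so results are given with and without it. It had 13971 detected probes, the fewest of the 16, against 14439 to 14930 on the other air arrays. Its Spearman correlations with the other air arrays were 0.943 to 0.961, against 0.976 to 0.987 among the other 5. On this array 206 probes were 2-fold or more higher than on each of the other 15, and 25 were 2-fold or more lower. Those farthest above included Spic, a transcription factor of red pulp macrophages, at 10.06 against 4.86 to 5.93 on the others. They also included the Fc receptor gene Fcgr1, at 11.01 against 6.57 to 7.76, and the macrophage gene Aif1, at 11.94 against 8.31 to 8.90. Saa3, an acute-phase protein gene, was at 12.21 there against 5.24 to 9.56. Among those farthest below was Klra4, a receptor gene of natural killer cells, at 8.16 against 9.52 to 10.84. Why this array stood apart was not tested, and results are given below with and without it.

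The targeted gene could not check the labels. Mmp28 has 2 probes on the array. The first was not detected on any of the 16 arrays. The second was detected on all 16, and its level in air was 6.05, 5.43 and 5.62 in KO, against 5.71, 6.04 and 5.72 in WT, so that the groups overlapped. The difference was -0.12 ± 0.226 (SE of the 16-array fit, n = 3 each; limma, adjusted p = 0.841), and -0.18 without WT replicate 1. In smoke the KO arrays ran from 5.39 through a median of 5.70 to 6.20, against 5.67, 6.04 and 6.49 in WT. Where the probes lie relative to the deleted part of the gene is not given in the sources used here, and a probe outside that part would not read the deletion.

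Genes of the extracellular matrix were higher in KO lungs than in WT lungs in room air. Of 36 tested probes for matrix and elastic fibre proteins (28 genes), 14 rose and 0 fell in the KO, against 0.319% of all tested probes that rose. At an unadjusted p under 0.05, 33 of the 36 were higher, against 8.73% of all tested probes. The median log2 difference of the 36 probes was 0.72, against -0.02 for all tested probes, and all 36 were above 0. Without WT replicate 1 the median was 0.67, all 36 were again above 0, and 0 of them were called, with 31 at an unadjusted p under 0.05 (6.15% of all tested probes were higher at that p) and a smallest adjusted p of 0.0586 in limma's test. The 3 KO arrays lay above all 3 WT arrays for 30 of the 36 probes, against 8.44% of all tested probes. This held for 31 of 36 without WT replicate 1, against 12.7% of all tested probes. In smoke the same 36 probes had a median difference of 0.06, and 0 were called in limma's test, with 0 at an unadjusted p under 0.05, against 1.92% of all tested probes higher and 2.40% lower. The matrix list and the other lists were drawn up with earlier results of these data known.

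The fibrillar collagens are the first members of this group, and the promoters of 3 that were called higher in the KO are shown. No promoter of Col1a1, which was also called higher, was used here. The sequences are from RefSeq (GRCm38.p6) and run from 250 bases before to 50 after the annotated gene start, on the strand of the gene. Capitals mark the motifs CCAAT and TATAAA, each searched on both strands, where the other strand reads ATTGG and TTTATA. The 2 motifs do not overlap each other in these windows.
Col1a2 (chr6:4505368-4505667, + strand): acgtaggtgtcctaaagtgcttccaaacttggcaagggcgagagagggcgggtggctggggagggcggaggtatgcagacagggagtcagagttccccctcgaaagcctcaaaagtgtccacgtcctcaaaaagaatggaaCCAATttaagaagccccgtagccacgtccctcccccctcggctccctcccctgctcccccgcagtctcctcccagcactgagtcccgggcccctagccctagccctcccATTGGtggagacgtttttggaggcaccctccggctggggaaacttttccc
Col3a1 (chr1:45311288-45311587, + strand): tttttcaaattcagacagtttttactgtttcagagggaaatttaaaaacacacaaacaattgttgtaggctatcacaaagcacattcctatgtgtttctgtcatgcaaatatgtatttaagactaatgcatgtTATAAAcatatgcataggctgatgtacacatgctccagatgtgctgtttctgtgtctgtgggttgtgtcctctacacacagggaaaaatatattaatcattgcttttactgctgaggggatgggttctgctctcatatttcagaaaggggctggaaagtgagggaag
Col5a1 (chr2:27886175-27886474, + strand): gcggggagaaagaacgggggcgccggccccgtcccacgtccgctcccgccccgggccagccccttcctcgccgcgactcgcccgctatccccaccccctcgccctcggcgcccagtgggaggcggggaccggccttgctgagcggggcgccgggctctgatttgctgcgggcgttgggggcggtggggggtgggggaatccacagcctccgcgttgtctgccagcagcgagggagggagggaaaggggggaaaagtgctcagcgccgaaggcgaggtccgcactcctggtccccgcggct
The Col1a2 window holds CCAAT beginning 109 bases before the start and ATTGG beginning at the start itself. The Col3a1 window holds TATAAA beginning 117 bases before the start, and the Col5a1 window holds neither motif. CCAAT occurs on either strand in 37.4% of the 32851 promoters of the table and TATAAA in 13.6%, so these matches are a description only.

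Col1a1, which encodes the main chain of type I collagen, had the smallest p of the group. Its level was 8.12, 7.91 and 8.46 in the KO arrays, against 6.90, 7.23 and 6.89 in the WT arrays. The lowest KO array was above the highest WT array, and the WT array that stood apart lay with the others. The log2 difference was 1.16 ± 0.160 (SE, n = 3 each), a 2.23-fold rise (limma, adjusted p = 0.0114). It was 1.10 without WT replicate 1, with an adjusted p of 0.0586 in limma's test.

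Col1a2, the second chain of type I collagen, was at 8.14, 7.74 and 7.96 in KO and at 6.80, 7.29 and 6.44 in WT, a difference of 1.10 (limma, adjusted p = 0.0383). Col3a1, the chain of type III collagen, which is found with type I in the alveolar wall, was at 9.17, 8.74 and 9.36 in KO and at 7.78, 8.19 and 7.78 in WT. Its difference was 1.17 (limma, adjusted p = 0.0383). Both genes had KO arrays wholly above WT arrays, and WT replicate 1 lay within 0.01 of WT replicate 3 for Col3a1 and above it for Col1a2. Col5a1, whose product sits in the core of type I fibrils, was at 8.34, 8.05 and 8.18 in KO and at 7.19, 7.51 and 7.53 in WT (difference 0.78, adjusted p = 0.0383). Without WT replicate 1 the differences were 1.08 for Col1a2, 1.10 for Col3a1 and 0.67 for Col5a1, with adjusted p of 0.143, 0.143 and 0.164 in limma's test. Pcolce, whose product speeds the trimming of procollagen, was not on the matrix list. It was at 7.94, 8.04 and 8.09 in KO and at 6.77, 7.22 and 7.09 in WT (difference 1.00, adjusted p = 0.0383, and 0.87 without WT replicate 1).

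Among the other collagens, Col4a1, a chain of the basement membrane collagen, was at 11.69, 11.58 and 11.73 in KO and at 10.80, 11.01 and 11.13 in WT (difference 0.68, limma adjusted p = 0.0383). Type VI collagen forms beaded filaments around cells. Its gene Col6a1 rose on both probes, by 0.97 (adjusted p = 0.0354) and 0.95 (adjusted p = 0.0476). The first of these probes read 9.79, 9.45 and 10.03 in KO and 8.55, 9.07 and 8.74 in WT. Col6a2 rose by 0.81 (adjusted p = 0.0383). WT replicate 1 was the lowest array on both Col6a1 probes and on Col4a1, and without it the differences were 0.85 and 0.73 for Col6a1 and 0.59 for Col4a1.

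Eln encodes elastin, the protein lost in emphysema. Its level was 9.04, 9.03 and 8.95 in KO, against 8.08, 8.01 and 8.06 in WT. The groups did not overlap, and the array that stood apart was not low for this gene. The difference was 0.96 ± 0.164 (SE, n = 3 each), a 1.94-fold rise (limma, adjusted p = 0.0354), and 0.97 without WT replicate 1 (adjusted p = 0.14). Fbln1, a fibulin that binds elastic fibres, rose on 1 of 3 probes, by 0.85 (adjusted p = 0.0377). Its other probes read 0.86 (adjusted p = 0.0501) and 0.52 (adjusted p = 0.302). Ltbp4, a latent TGF-beta binding protein needed for elastic fibre assembly, had differences of 0.69, 0.95 and 0.74 on its 3 probes, with adjusted p of 0.0502, 0.0502 and 0.067 in limma's test. No Ltbp4 probe passed.

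The small proteoglycans and Sparc followed. Lum, the gene of lumican, was at 7.02, 6.94 and 7.56 in KO, against 5.57, 5.69 and 6.39 in WT, a difference of 1.29 (2.44-fold, limma adjusted p = 0.0383). Dcn, the gene of decorin, was at 12.09, 12.19 and 12.38 in KO, against 10.84, 11.10 and 11.62 in WT on the called probe. That probe differed by 1.03 (adjusted p = 0.0383), and the second Dcn probe by 1.02 (adjusted p = 0.0822). For both genes the WT arrays were spread, with replicate 1 lowest and replicate 3 highest. Bgn, the gene of biglycan, rose by 0.74 (adjusted p = 0.038). Sparc, which encodes a collagen-binding glycoprotein, was at 11.23, 11.34 and 11.40 in KO, against 10.56, 10.59 and 10.39 in WT, and rose by 0.81 (adjusted p = 0.0354). Without WT replicate 1 the differences were 1.13 for Lum, 0.86 for Dcn, 0.66 for Bgn and 0.83 for Sparc. The lowest of the matrix probes was Loxl2, a collagen cross-linking enzyme, with a difference of 0.01 (adjusted p = 0.991).

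**Figure D1:**
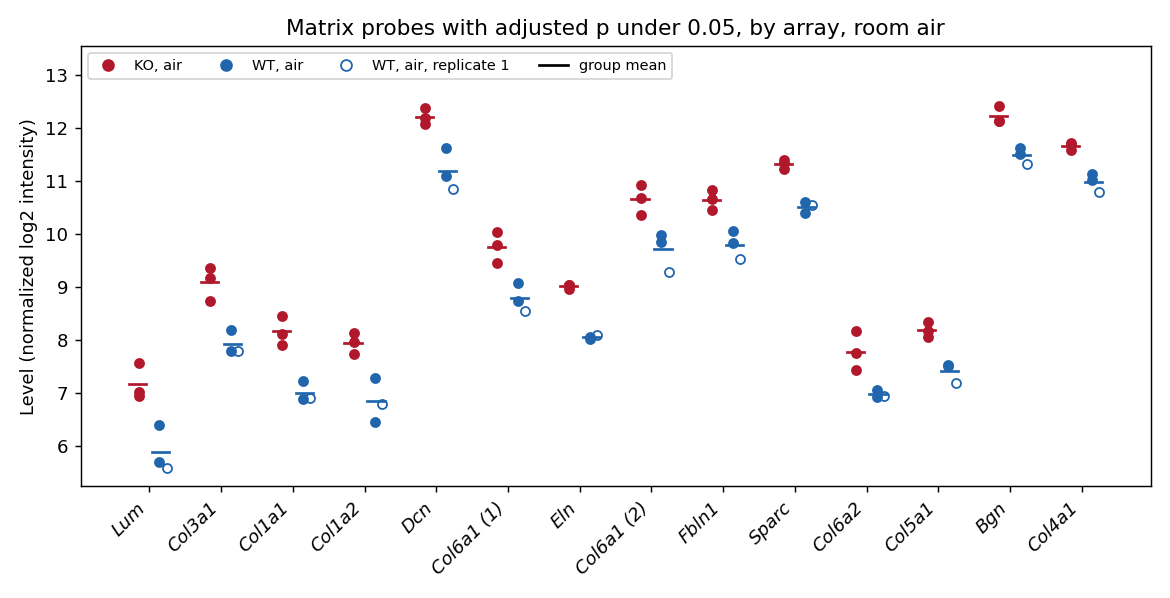
Normalized log2 intensity (vertical axis) of the 14 matrix probes called in air, by gene (horizontal axis), with the 3 KO arrays in red left of the 3 WT arrays in blue. Open circles are WT replicate 1 and lines are group means. For each of the 14 probes the KO points lie above all WT points.

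In all, 52 of the 14724 probes were called, 0.353% of those tested. Of these, 47 rose (41 named genes) and 5 fell (4 named genes), with 2 called probes that no table here names. The fitted sizes ran from 0.62 to 1.78 with a median of 0.90, and 13 probes were at least 2-fold higher in KO. An unadjusted p under 0.05 was reached by 2127 probes, 14.4% of those tested. Without WT replicate 1 the call was made for 2 probes, 0.0136% of those tested, with 1579 probes at an unadjusted p under 0.05. All 52 probes kept their direction and an unadjusted p under 0.05 without this array, and the median of the ratios of the difference without it to the difference with it was 0.878. The 50 that lost the call had adjusted p of 0.0586 to 0.179. Leaving out WT replicate 2 gave 153 calls and leaving out WT replicate 3 gave 97. Leaving out KO replicate 1 gave 3, KO replicate 2 gave 71 and KO replicate 3 gave 1. Leaving out a smoke array changes only the shared estimate of the spread. Then 3 calls were made without KO smoke replicate 1, without KO smoke replicate 2, without WT smoke replicate 2 or without WT smoke replicate 4, 6 without KO smoke replicate 4, and 38 to 77 without any 1 of the other 5 smoke arrays. A fit of the 6 air arrays alone in limma called 0 probes, with 1219 at an unadjusted p under 0.05. The matrix probes kept their direction throughout: 35 or 36 of 36 were above 0 without any 1 array, with medians of 0.65 to 0.80, while the number called ran from 0 to 18.

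**Figure D2:**
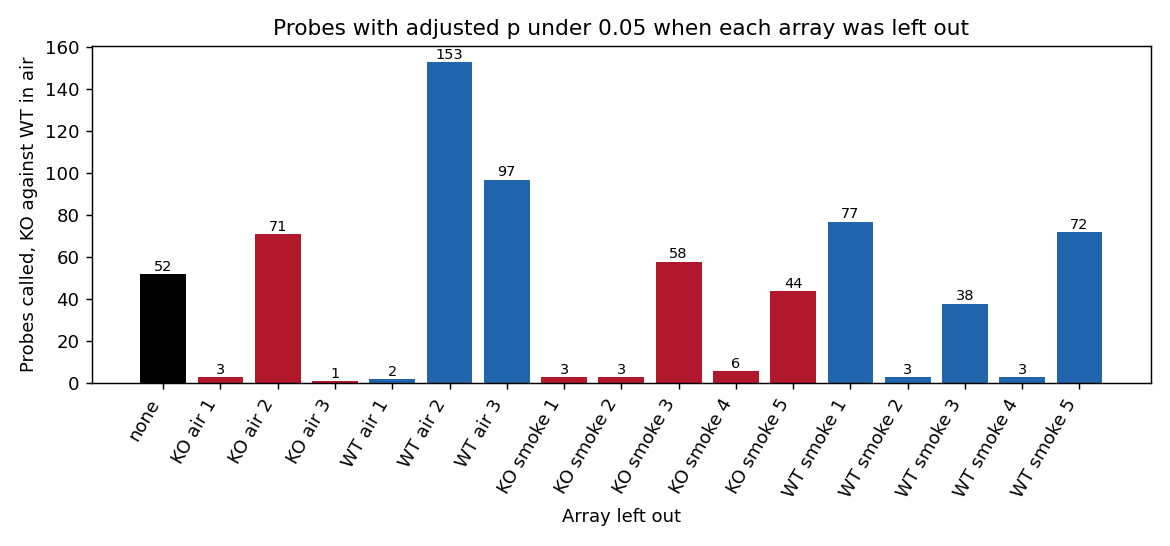
Number of probes called in KO against WT in air (vertical axis, starting at 0) with no array left out and with each of the 16 arrays left out in turn (horizontal axis). KO arrays are red and WT arrays blue. The count is 52 with all arrays, 1 without KO air 3 and 153 without WT air 2.

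Mmp28 is itself a matrix metalloproteinase, so its family and the inhibitors were read next. Of 14 tested probes for matrix metalloproteinases (12 genes), 0 were called in either direction in limma's test. An unadjusted p under 0.05 was reached by 6, all of them higher, against 8.73% of all tested probes higher at that p. The median difference was 0.33, and 0.41 without WT replicate 1. Mmp2, the gelatinase made by fibroblasts, was at 10.08, 10.02 and 10.11 in KO, against 9.16, 9.52 and 9.04 in WT (difference 0.83, adjusted p = 0.067). Mmp3, stromelysin 1, had differences of 1.03, 0.96 and 0.77 on its 3 probes, with adjusted p of 0.0825, 0.117 and 0.163 in limma's test. For both genes the KO arrays lay wholly above the WT arrays, as they did for 8.44% of all tested probes. The elastin-cutting Mmp12 of macrophages had a difference of 0.46 (adjusted p = 0.747) and Mmp9 of -0.26 (adjusted p = 0.725).

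The tissue inhibitors of metalloproteinases showed values of similar size. Of 13 tested probes for proteinase inhibitors (10 genes), 0 were called in limma's test, and all 13 were above 0. An unadjusted p under 0.05 was reached by 4, all higher, against 8.73% of all tested probes higher at that p. The median was 0.42. Without WT replicate 1 it was 0.51, with 10 of the 13 above 0. Timp2 was at 11.54, 11.41 and 11.82 in KO, against 10.57, 10.94 and 11.06 in WT, a difference of 0.74 (adjusted p = 0.0502). Timp3, the inhibitor bound to the matrix, had differences of 0.73 and 0.67 on its 2 probes (adjusted p = 0.146 and 0.269). Serpina3n, a serine proteinase inhibitor, was at 9.33, 9.43 and 9.49 in KO, against 8.88, 8.42 and 8.41 in WT (difference 0.85, adjusted p = 0.0831). WT replicate 1 was the highest WT array for Serpina3n, and without it the difference was 1.00 (adjusted p = 0.143). Neither the enzymes nor the inhibitors gave a call without WT replicate 1, and their smallest adjusted p were then 0.202 and 0.143 in limma's test.

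Of 26 probes for genes that hold, release or bind TGF-beta (15 genes), 0 were called in limma's test. An unadjusted p under 0.05 was reached by 11, all higher, against 8.73% of all tested probes higher at that p. The median was 0.38, or 0.23 without WT replicate 1. Ltbp3, a latent TGF-beta binding protein like Ltbp4, had a difference of 0.83 (limma, adjusted p = 0.0657).

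Cell type markers were read on the same arrays. The mesothelial, type 1, fibroblast and endothelial lists had median differences above 0. So did, among others, those of type 2 cells (0.71), lymphatic vessels (0.40), smooth muscle (0.35) and alveolar macrophages (0.34). Medians below 0 included those of ciliated cells (-0.32), neutrophils (-0.37) and interstitial macrophages (-0.21). The B-cell median of -0.03 was near the -0.02 of all tested probes. Mesothelial cells line the surface of the lung. Of 12 tested mesothelial probes (9 genes), 3 rose and 0 fell, and 9 were higher at an unadjusted p under 0.05, against 0.319% of all tested probes that rose and 8.73% that were higher at that p. The median difference was 1.10. The mean level over these probes was 7.46 to 7.63 on the KO arrays, against 6.20 to 7.07 on the WT arrays, and 6.48 to 7.07 without WT replicate 1. Wt1, a transcription factor that defines mesothelium, was at 6.28, 6.31 and 6.53 in KO, against 4.66, 4.88 and 5.53 in WT, where 1 of the 3 arrays did not detect it. It differed by 1.35 (limma, adjusted p = 0.0388). Gpm6a, a membrane glycoprotein, was at 7.62, 7.81 and 8.10 in KO, against 6.14, 6.57 and 6.95 in WT (difference 1.29, adjusted p = 0.0377). Upk1b, a uroplakin, rose by 0.90 (adjusted p = 0.0411). The uroplakin gene Upk3b had 1.57 on its probe with the smallest p (adjusted p = 0.0501), with WT arrays at 6.90, 7.55 and 8.45, and mesothelin, Msln, had 1.41 (adjusted p = 0.0966). The WT arrays were spread widely on these genes, with replicate 3 nearest the KO arrays. The list's median was 0.92 without WT replicate 1 and 0 probes were called. Then 8 were higher at an unadjusted p under 0.05, against 6.15% of all tested probes. The part of these markers in the matrix difference was not tested.

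For fibroblasts, 2 of 15 tested probes rose, against 0.319% of all tested probes. They were Col1a1 and Dcn, which also belong to the matrix list. The list's median was 0.62, and 0.50 without WT replicate 1. Its mean level was 8.77 to 9.07 in KO, against 8.22 to 8.57 in WT. Pdgfra, the receptor that defines lung fibroblasts, had a difference of 0.64 (adjusted p = 0.229). Alveolar type 1 cells are the flat cells of gas exchange. Of 12 probes for them, 2 rose, against the same 0.319%, Emp2 by 0.92 (adjusted p = 0.0429) and Vegfa by 0.87 (adjusted p = 0.0476), and all 12 were above 0. The mean level was 9.47 to 10.27 in KO, against 8.67 to 9.28 in WT, and KO replicate 3 was the highest array for Emp2 and Vegfa. Ager, the defining gene of these cells, was at 9.99, 10.22 and 11.26 in KO, against 9.11, 9.91 and 8.75 in WT on 1 of its probes (difference 1.23, adjusted p = 0.0802). The list's median was 0.87, and 0.74 without WT replicate 1. Of 19 endothelial probes 0 were called in limma's test, 13 were higher at an unadjusted p under 0.05, against 8.73% of all tested probes, and all 19 were above 0. Their median was 0.47, and 0.34 without WT replicate 1. The lists with the highest medians among these lung cell types were those of mesothelium and type 1 cells, and their part in the matrix difference was not tested.

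**Figure D3:**
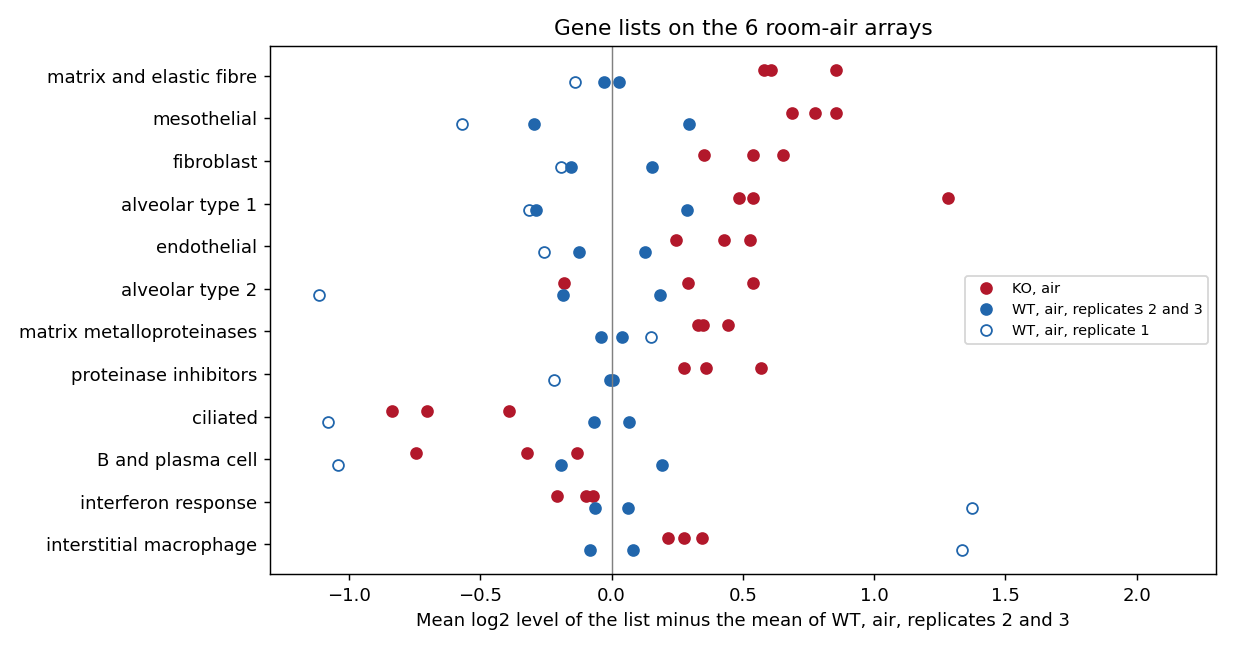
Mean log2 level of the tested probes of 12 gene lists (rows) on each of the 6 air arrays, minus the mean of WT replicates 2 and 3 (horizontal axis). KO arrays are red, WT arrays blue, and open circles are WT replicate 1. The KO points lie right of all WT points for the matrix, mesothelial, fibroblast, type 1, endothelial, metalloproteinase and inhibitor lists, and WT replicate 1 lies right of all other points for the interferon and interstitial macrophage lists.

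Several lists depended on WT replicate 1. The 31 interferon response probes had a median difference of -0.64, with 0 called in limma's test. An unadjusted p under 0.05 was reached by 10, all lower, against 5.71% of all tested probes lower at that p. WT replicate 1 was the highest of the 16 arrays on 29 of the 31, and without it their median was -0.11. Oasl1, an interferon-induced gene, was at 6.37, 6.55 and 5.77 in KO, against 7.93, 7.13 and 6.90 in WT (difference -1.09, adjusted p = 0.0966). The 22 probes of alveolar type 2 cells, which make surfactant, had a median of 0.71 with all arrays and 0.24 without WT replicate 1, which was the lowest of the 16 arrays on 14 of them. The 19 probes of ciliated airway cells had medians of -0.32 with all arrays and -0.76 without WT replicate 1. Without it, 0 were called in limma's test and 12 were lower at an unadjusted p under 0.05, against 4.58% of all tested probes. For 14 of the 19 the KO arrays lay wholly below the other 2 WT arrays, against 14.2% of all tested probes. Among these 14 was Mlf1, a gene expressed in ciliated cells, at 6.44, 6.14 and 6.35 in KO, against 6.11, 7.52 and 7.10 in WT. In the complement list of 10 probes the median was 0.20, and 0.65 without WT replicate 1. C2, a classical pathway protease, was at 9.36, 9.38 and 9.37 in KO, against 8.12, 8.24 and 8.59 in WT, and missed the threshold (difference 1.05, adjusted p = 0.0502).

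Sphk1, the kinase that makes sphingosine 1-phosphate, was at 7.29, 7.29 and 8.23 in KO, against 5.97, 6.56 and 6.24 in WT, a difference of 1.35 (2.55-fold, limma adjusted p = 0.0383). Gdf10, a member of the bone morphogenetic protein family, was at 7.54, 7.52 and 7.71 in KO, against 6.53, 6.20 and 6.65 in WT (difference 1.13, adjusted p = 0.0383). Its difference was 1.17 without WT replicate 1. Pdgfb, a growth factor for pericytes and smooth muscle, averaged 10.90 ± 0.13 in KO and 9.93 ± 0.228 in WT on 1 probe (SD, n = 3 each), without overlap (difference 0.97, limma adjusted p = 0.0354). The second Pdgfb probe, near the background, had 0.33 (adjusted p = 0.495). Cxcl12, a chemokine of stromal cells, rose on 1 of 3 probes, by 0.82 (adjusted p = 0.0354), and the other probes had 0.69 and 0.65. Of the 38 chemokine and cytokine probes this was the only one called.

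Among transcription factors, Sox7, known from endothelium, rose on both probes, by 1.07 and 0.92 (limma, adjusted p = 0.0383 and 0.0456). Sox13 was at 8.50, 8.46 and 8.71 in KO, against 7.21, 7.52 and 7.84 in WT (difference 1.03, adjusted p = 0.0476). Ano1, a calcium-activated chloride channel, was at 6.65, 6.41 and 6.86 in KO, against 4.74, 5.92 and 5.58 in WT. For Ano1 the array that stood apart was the lowest and did not detect the probe, and the difference of 1.23 became 0.89 without it. Pdzrn3, a ubiquitin ligase, rose by 0.99 (adjusted p = 0.0404). All of these lost the call without WT replicate 1.

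Tbx3, a T-box transcription factor of lung mesenchyme, rose on both probes, by 0.98 and 0.95 (limma, adjusted p = 0.0354 and 0.0383). Bmp4, a growth factor of the bone morphogenetic family, was at 8.86, 8.92 and 9.38 in KO, against 8.16, 8.47 and 7.98 in WT (difference 0.85, adjusted p = 0.0383). Lpar1, a receptor for lysophosphatidic acid, was at 6.98, 6.66 and 7.10 in KO, against 6.19, 5.95 and 5.89 in WT. Its difference was 0.90 (limma, adjusted p = 0.0383), and 0.99 without WT replicate 1. Nbl1, a secreted antagonist of bone morphogenetic proteins, rose by 0.81 (adjusted p = 0.0476), and Chst1, a sulfotransferase, by 0.82 (adjusted p = 0.048). For all of these the KO arrays lay wholly above the WT arrays, as they did for every probe called higher. Rusc2 on both probes, Plcd1, Fads3, Ndn, Efs and Rab34 also rose, by 0.71 to 0.84.

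Few genes fell, 0.0340% of the tested probes. All 5 probes had the KO arrays wholly below the WT arrays, against 6.76% of all tested probes. The groups were apart for all 52 called probes. Those were picked by their p on these same arrays, so the separation is a description only. Mylpf, a myosin light chain of fast skeletal muscle, was at 4.88, 4.80 and 4.42 in KO, where no array detected it, against 5.73, 5.33 and 5.53 in WT, where all 3 did. WT was at least 1.53-fold above KO (limma, adjusted p = 0.0294). Nek4, a protein kinase gene, was likewise detected on the 3 WT arrays and on no KO array. Its levels were 4.64, 4.68 and 4.55 in KO and 5.49, 5.07 and 5.19 in WT, a WT level at least 1.26-fold above KO (adjusted p = 0.0383). The unnamed probe ILMN_2897137 had the same pattern, with WT at least 1.27-fold above KO (adjusted p = 0.0383). These 3 probes passed the detection filter only through the WT arrays, so their pattern of detection is a description only. For these bounds, each undetected value was replaced by the lowest detected signal of its array where that was higher. Cnpy3, a chaperone of Toll-like receptors, was at 6.85, 7.26 and 6.71 in KO, against 8.05, 7.63 and 7.77 in WT, and fell by 0.87 on the log2 scale (adjusted p = 0.0383). Sys1, a Golgi protein gene, was at 6.01, 5.79 and 5.57 in KO, against 7.13, 6.39 and 6.42 in WT, and fell by 0.86 (adjusted p = 0.0429). WT replicate 1 was the highest array for 4 of the 5 probes, and without it the differences were -0.76 for Cnpy3 and -0.61 for Sys1, and none of the 5 was called. Mylpf was the 1 called probe of 7 on the skeletal muscle list, whose median was -0.26, and -0.15 without WT replicate 1. In all, 25 of the 14724 tested probes were detected on all 3 KO arrays and on no WT array, of which 1 was called. The other way round there were 34, of which 3 were called, against 0.353% of all tested probes called. All of these passed the filter only through the genotype that detected them, so the counts are a description only.

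Cuedc1 had the smallest p of the comparison and encodes a protein with a ubiquitin-binding CUE domain. Its level was 6.44, 5.97 and 6.81 in KO, where all 3 arrays detected it, against 4.65, 4.47 and 4.75 in WT, where none did. It thus passed the detection filter only through the KO arrays. KO was at least 2.79-fold above WT (limma, adjusted p = 5.4e-04), and it was called without WT replicate 1 as well (adjusted p = 0.00338). In smoke, where again all 5 KO arrays and no WT array detected it, the KO arrays ran from 6.50 through 6.85 to 7.10, against 4.46, 4.72 and 4.81 in WT. KO was at least 3.75-fold above WT in smoke (limma, adjusted p = 7.07e-07). Cuedc1 was called with each of the 16 arrays left out. With the authors' normalized values, which keep the background, its difference was 0.30 and it was not called (limma, adjusted p = 0.0539).

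Tlcd2, which encodes a membrane protein with a TLC domain, was the other gene called without WT replicate 1. Its first probe was at 5.77, 5.78 and 5.77 in KO, against 4.89, 4.92 and 4.56 in WT (difference 0.98, adjusted p = 0.0114), and 1.03 without WT replicate 1 (adjusted p = 0.0377). Its second probe was at 5.25, 5.20 and 5.54 in KO, against 4.58, 4.47 and 4.89 in WT (difference 0.69, adjusted p = 0.0476). It had 0.65 without WT replicate 1 (adjusted p = 0.164). This second probe was called in 5 of the 16 fits with 1 array left out, and in 0 of the 12 other alternatives that tested it. All 3 KO arrays and 1 of 3 WT arrays detected each probe. In smoke the differences were 0.83 on both probes (adjusted p = 0.00254 and 0.00281).

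Cuedc1 and Tlcd2 lie on chromosome 11, as Mmp28 does, with 69 and 133 protein-coding genes between them and Mmp28 in the GRCm38.p6 annotation, on opposite sides. Of the called probes that have a chromosome, 8 of 50 were on chromosome 11 (16%), against 9.14% of the tested ones. These included probes of 2 genes of the matrix list, Col1a1 and Sparc, with 120 protein-coding genes between Col1a1 and Mmp28. Both probes called without WT replicate 1 were on this chromosome, and in smoke 5 of 7. Of 118 placed probes with an unadjusted p under 0.05 and the same sign in both exposures, 27 were on chromosome 11 (22.9%). Of the probes near Mmp28 described next, 4 had an unadjusted p under 0.05 with the same sign in both exposures, those of Unc45b (2), Nle1 and Rad51d. Unc45b and Nle1 have 13 and 14 protein-coding genes between them and Mmp28. Unc45b, a myosin chaperone gene, was at 8.69, 8.79 and 8.81 in KO, against 9.30, 9.26 and 9.71 in WT on 1 of its probes (difference -0.66, adjusted p = 0.0863). The second Unc45b probe had -0.56 (adjusted p = 0.142). In smoke both were called, at -1.29 and -1.37 (adjusted p = 1.01e-04 and 6.16e-05). Nle1, a factor of ribosome assembly, was at 8.14, 7.49 and 7.91 in KO, against 6.69, 7.08 and 7.28 in WT (difference 0.83, adjusted p = 0.0501), and in smoke had 0.77 (adjusted p = 0.0502). Among the 20 protein-coding genes on each side of Mmp28, 38 probes of 23 genes were tested, of which 0 were called in air in limma's test, 7 had an unadjusted p under 0.05 in air (14.4% of all tested probes did), and 2, those of Unc45b, were called in smoke. Why differences between the genotypes lie on this chromosome was not tested.

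**Figure D4:**
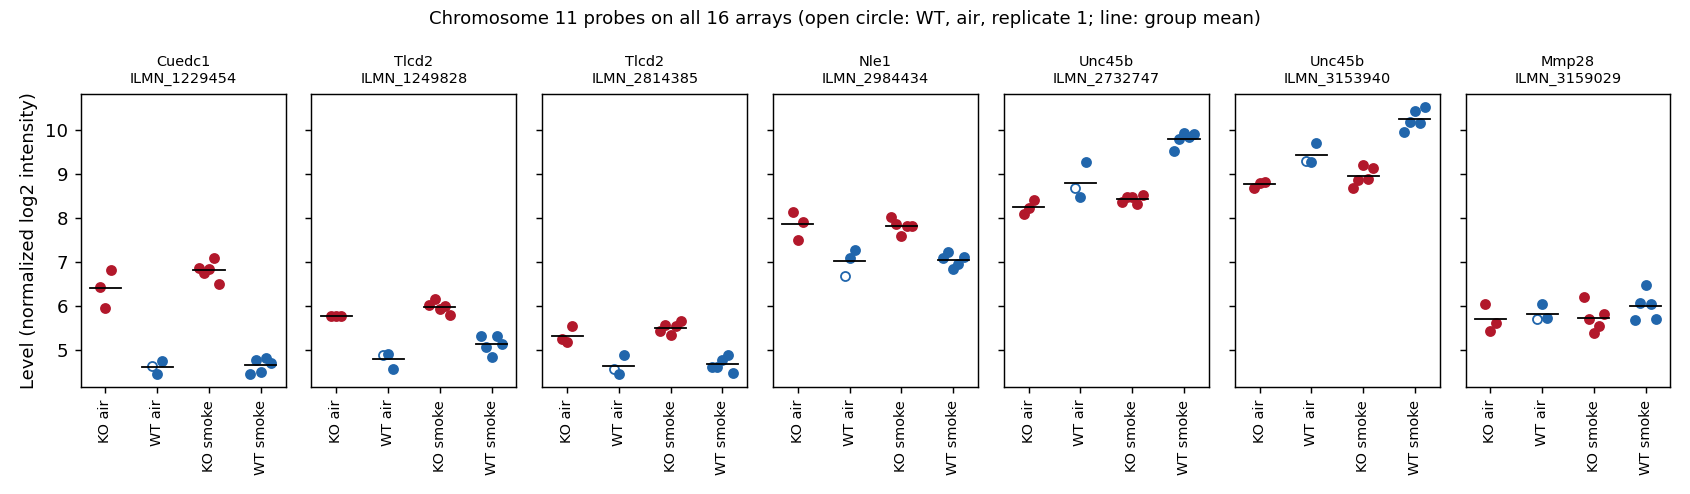
Normalized log2 intensity (vertical axis) of 7 probes of chromosome 11 genes on all 16 arrays, with KO in red and WT in blue, by group (horizontal axis). The open circle is WT air replicate 1 and lines are group means. Cuedc1, Tlcd2 and Nle1 lie higher in KO in both exposures, Unc45b lies lower in KO, and Mmp28 overlaps.

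The smoke arrays gave a second look at the genotype difference in samples that the air comparison does not use. The contrasts of the 2 exposures share no array, though all arrays were normalized together and share 1 estimate of the spread. In smoke 7 probes were called, 0.0475% of those tested, with 4 higher (0.0272%) and 3 lower (0.0204%) in KO. Of the 52 air calls, 43 kept their sign in smoke, 4 had an unadjusted p under 0.05 there and 3 were called, those of Cuedc1 and Tlcd2, against 4.32% of all tested probes at an unadjusted p under 0.05. For the 47 that rose in air the median difference was 0.92 in air and 0.12 in smoke. The fourth was Slc6a4, the serotonin transporter gene, at 9.46, 9.40 and 9.48 in KO, against 8.04, 8.83 and 8.64 in WT in air (difference 0.94, adjusted p = 0.0383). In smoke its difference was 0.33 (unadjusted p = 0.0358, adjusted p = 0.999). The matrix genes had nearly equal means in smoke: Col1a1 averaged 8.92 ± 0.141 in KO and 8.90 ± 0.194 in WT (SD, n = 5 each), and Eln 8.72 ± 0.294 in KO and 8.89 ± 0.185 in WT. The mean level of the matrix list was 8.42 to 8.70 on the KO air arrays and 7.70 to 7.87 on the WT air arrays. It was 8.80 to 9.11 on the KO smoke arrays and 8.72 to 9.05 on the WT smoke arrays. The WT air arrays were thus the lowest of the 4 groups, and the KO air arrays lay between them and the smoke arrays.

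Whether the genotype difference itself differed between the exposures was tested with the interaction term, (KO minus WT in smoke) minus (KO minus WT in air). No probe passed in limma's test (0 of 14724), with a smallest adjusted p of 0.348 and 1133 probes (7.69%) at an unadjusted p under 0.05. The count was again 0 without WT replicate 1, with 1212 (8.23%) at an unadjusted p under 0.05. Col1a1 had an interaction of -1.14 (unadjusted p = 3.36e-05, adjusted p = 0.348). Since the genes called in air were picked by their difference in air, which enters the interaction, their unadjusted p are descriptions only. A difference between the exposures was therefore not shown for any of them.

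**Figure D5:**
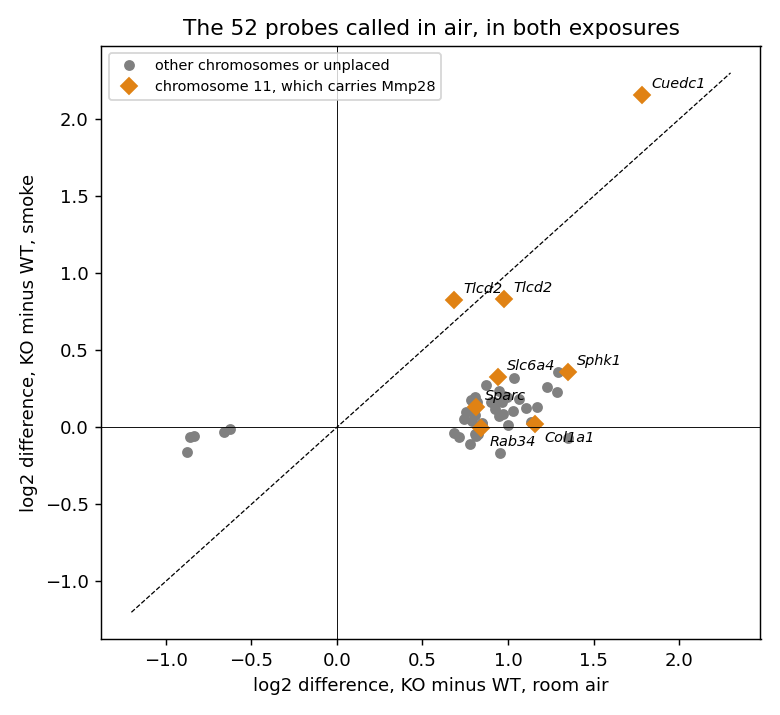
Log2 difference, KO minus WT, in smoke (vertical axis) against that in room air (horizontal axis) for the 52 probes called in air. Diamonds are probes of chromosome 11 genes, and the dashed line marks equal differences. Cuedc1 and both Tlcd2 probes lie near the line, and the other 44 probes that rose in air have smoke differences between -0.17 and 0.36.

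The arrays differed in background signal, the mean deposited intensity of probes with a detection p between 0.4 and 0.6, that is, probes no brighter than the negative controls. It averaged 114 ± 4.99 units on the KO air arrays and 121 ± 3.08 on the WT air arrays (SD, n = 3 each; 2-sided exact permutation p = 0.2, where the smallest that 3 against 3 allow is 0.10). With the background as a covariate limma called 0 probes, with 768 at an unadjusted p under 0.05, and the matrix median was 0.58 with 35 of 36 probes above 0. The background was lower on average in KO, but the groups overlapped, with 109 to 119 on the KO arrays and 118 to 124 on the WT arrays. Apart from that fit the part of the background in the result was not tested.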

How the data were processed

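Total RNA of whole-lung homogenates, 16 samples in 4 groups, was read on Illumina MouseRef-8 v2 arrays. The deposited table gives 1 intensity and 1 detection p-value per probe and array. The intensities, 90.9 to 38084, are unnormalized, as their differing levels show, and the p-values come from negative controls on each array (798 by their steps). A further deposited table holds the authors' normalized intensity values on a linear scale, with the same median in every column. The submitters' processing notes name lumi, without its version or settings, which the sources used here do not state. Centring by gene was not seen in that table, and it was used only as an alternative.

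Intensities of all 16 arrays were corrected with normexp, using the detection p-values and an offset of 16, quantile normalized and taken to log2 (neqc in limma 3.58.1, R 4.3.3). Probes detected at p under 0.05 on at least 3 of the 6 air arrays were fitted with 4 group means and eBayes over all 16 arrays, and p-values were adjusted by Benjamini-Hochberg over the 14724 probes. The script was tested on simulated data. With 3 arrays a group, the number of arrays limits the precision. In the fit, whose spread is shared by all 16 arrays, the median half-width of the 95% interval of a log2 difference was 0.361. In that fit 90.8% of the tested probes had an interval that does not reach 2-fold. These intervals do not give the precision that the 6 air arrays would have alone. No 2 arrays held identical values, and probes were not averaged by gene.

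Genes were named from the platform annotation in GEO (23978 of 25697 probes with 1 gene, 0 with several, 1719 with none), of which 23962 matched RefSeq GRCm38.p6 by gene identifier. The genes named were Mmp28, up to 15 called in each direction with the largest difference, those called without WT replicate 1, up to 4 per list with the smallest p, called probes detected in 1 genotype only, those called in both exposures, and the extremes of WT replicate 1. Genes called in air beyond these, Col5a1, Col4a1, Fbln1, Bgn and Pdgfb among them, and Mmp9, Mmp12, Msln, Pdgfra, Loxl2, Rad51d, Unc45b, Nle1 and Slc6a4, were named after their values were seen. The comparison, the lists and the tests were chosen with earlier results of these data known. Same-numbered KO and WT air arrays did not deviate together (r of -0.02, -0.22 and 0.08), so replicate numbers were not used as pairs. The alternatives were other background corrections, normalizations, filters and fits, the authors' values, and each array left out. Slide and scan are not given in the files used here, so that no slide block was fitted.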

Additional observations from a re-analysis of the deposited data

Results flagged for a closer look

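Among 18 checks for 1 array far from the other arrays of a smoke group, 0 exceeded the 95% critical value, where chance exceeds it in about 1 in 20 checks. Groups of 3 arrays, the air groups, were not checked this way.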

How the results depend on the processing

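The number of probes called between KO and WT in air, 52, was 17 with no background correction (16 of them among the 52), 3 with median scaling, 16 with no filter (15 among the 52), 7 with array weights, 93 with a trended and robust prior (49 among the 52) and 99 with the replicate block (38 among the 52). It was 0 with the air arrays alone, fitted or also normalized among themselves (1219 and 1233 at an unadjusted p under 0.05 in limma), 0 with the background as a covariate (768) and 0 with the authors' values (2016). The share of calls that were higher in KO was 90.4%, and 100% with median scaling, where the median of all probes was -0.11 against -0.02, or with no background correction. Leaving out 1 array gave 1 to 153 calls. Without WT air replicate 1, the count of 2 was 0 with no background correction, with the 5 air arrays alone, normalized among themselves or not, with the background covariate, with the authors' values and with the replicate block. It was 1 with an offset of 50, with median scaling or with no filter, and 4 with array weights. It ran from 1 to 15 as a further array was left out, and was 2 when the other arrays were normalized without that array, an alternative chosen after seeing the data. In smoke the count of 7 was 4 with no background correction, with the background covariate or with the authors' values, and 24 with array weights, and the 3 probes called in both exposures became 1 with no background correction or with the authors' values. The interaction count was 0 in each setting run. The Mmp28 difference turned to 0.11 with the background covariate and ran from -0.30 to 0.012 as arrays were left out. C1qb turned to 0.47 with array weights, and ran from -0.97 to 0.67 as arrays were left out, the highest without WT air replicate 1. With the background covariate, probes of Fcrla turned to 0.028 and 0.019 and Ms4a1 to 0.020. The 4 Fcrla probes ran from -0.68 to 0.013, -0.60 to 0.022, -0.59 to 0.051 and -0.56 to 0.00085 as arrays were left out, each the highest without WT air replicate 3. Col1a1 was called in 14 of the 16 fits with 1 array left out and in 9 of the 13 other alternatives, with differences of 0.51 to 1.28. The median of the 36 matrix probes ran from 0.41, with the authors' values, to 0.80, and all of its tested probes, or all but 1, were above 0 in every setting run. The cause of these changes was not tested.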

Other observations

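B-cell and T-cell lists also depended on the wild-type array that stood apart. For 15 B-cell and plasma cell probes the median difference, KO minus WT in air, was -0.03 with all arrays and -0.47 without WT replicate 1. In the latter fit 0 were called in limma's test and 6 were lower at an unadjusted p under 0.05, against 4.58% of all tested probes. Without that array 9 of the 15 had the KO arrays wholly below the remaining WT arrays, against 14.2% of all tested probes. Ms4a1, the gene of the B-cell marker CD20, had a difference of -0.46 with all arrays and -0.71 without WT replicate 1 (limma, adjusted p = 0.492 and 0.411). The mean level of the B-cell list was 9.18 to 9.79 on the KO air arrays, against 8.88 to 10.12 on the WT air arrays, with WT replicate 1 the lowest. For 15 T-cell and natural killer cell probes the median was 0.06 with all arrays and -0.21 without WT replicate 1. The 16 neutrophil probes had a median of -0.37 in air, and -0.20 without WT replicate 1. With all arrays 0 were called in limma's test and 4 were lower at an unadjusted p under 0.05, against 5.71% of all tested probes. In smoke the neutrophil median was -0.63, and 7 had an unadjusted p under 0.05, all lower, against 2.40% of all tested probes. Of the 16, 1 was called lower, against 0.0204% of all tested probes. That 1 was Csf3r, the receptor for granulocyte colony-stimulating factor, with a difference of -0.81 in smoke (limma, adjusted p = 0.0427). A second Csf3r probe had -0.96 in smoke and was not called (limma, adjusted p = 0.142). The 16 housekeeping probes had a median of -0.06 in air, with 0 called and 0 at an unadjusted p under 0.05 in limma's test.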
